A study of Mus musculus with 15 samples.

Results

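The genes for the cyclin-dependent kinase (CDK) inhibitors were followed through the culture of mouse dental mesenchymal cells (mDMCs). The family was taken as 7 listed genes, Cdkn1a, Cdkn1b and Cdkn1c of the Cip/Kip group and Cdkn2a, Cdkn2b, Cdkn2c and Cdkn2d of the Ink4 group, and a gene was included when an Ensembl transcript of the deposited RNA-seq table mapped to it. A single row was found for each of 6 of the 7 genes, among the 11960 genes matched in the table, and Cdkn2a was not analysed here. The cells came from mandibular first molar germs of ICR mouse embryos at embryonic day 14.5. The dental mesenchyme was separated from the epithelium and dispersed with trypsin. The labels name no transgene or drug for any group.

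RNA-seq covered 15 libraries. Freshly isolated mDMCs (0 h) gave 3 libraries, cells cultured in serum-supplemented medium gave 2 libraries at 12 h and 3 each at 24 h, 36 h and 48 h, and undissociated dental mesenchyme tissue gave 1 library. The study asked what changes while cultured mDMCs lose the ability to form a tooth. How many embryos were pooled per library and whether the libraries of a time point were separate cultures is not given in the sources used here, so the p-values measure the spread between these libraries, which may be technical.

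Progress through the cell cycle is driven by CDKs bound to cyclins, and the inhibitors are its brakes. The Ink4 proteins bind Cdk4 and Cdk6 alone and keep them from the D-type cyclins, which leaves the retinoblastoma protein unphosphorylated and the E2f transcription factors held back. The Cip/Kip proteins p21 (Cdkn1a), p27 (Cdkn1b) and p57 (Cdkn1c) bind assembled cyclin and CDK pairs, above all those of Cdk2. Cdkn1a is a classical target of p53, Cdkn1b is controlled largely by protein turnover, Cdkn1c is imprinted and transcribed from the maternal allele, and Cdkn2b answers to TGF-beta and is held down by Polycomb proteins in many dividing cells.

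The values are whole-number scores that had been brought to the same distribution in every library, with a median of 721 and a maximum of 127101. A score therefore ranks a transcript against the others of its library, read depth is unknown, and a change in the total RNA of a cell cannot be seen. Differences between time points were tested with limma on log2(score + 1) over 12079 transcripts, and a transcript was called at a Benjamini-Hochberg adjusted p below 0.05.

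The scores of cell type markers differed between 0 h and culture. The 11 dental mesenchyme markers, Msx1, Pax9 and Pdgfra among them, were present in every group, and their summed score ranged from 83608 to 99644 at 0 h and from 48100 to 57147 at 48 h. The sum of 6 red cell markers fell from between 85839 and 135120 at 0 h to between 309 and 414 at 12 h and between 45 and 162 at 48 h, with Hba-x at 0 in every library of 12 h, 24 h and 36 h. Endothelial markers (8 genes) summed to 8757 to 10258 at 0 h and 1878 to 3469 at 48 h. Of these, 7 were called lower at 48 h (34% of all transcripts, list median -4.84) and Cldn5 was at 0, whereas Flt1 was called higher (37.1% of all transcripts), from a mean of 794.7 to 1943. The 4 macrophage markers summed to 895 to 1319 at 0 h and 291 to 372 at 48 h. The 7 epithelial markers summed to 16582 in replicate 1 of 0 h but to 2134 and 1992 in the other 2, to 2392 and 2801 at 12 h, and to 340 to 1166 at 48 h. Of 4 Schwann cell and neuron markers only Tubb3, a neuronal tubulin, had a row. Its score was higher in culture, at 77 to 258 for 0 h, 951 to 1034 for 12 h and 301 to 1005 for 48 h, and it was called higher at 12 h, 24 h and 48 h but not at 36 h (adjusted p = 0.0682). The part of these cell types in the changes of the inhibitors, and of the other genes described below, was not tested. Fewer cells of a type and less RNA per cell cannot be told apart in these bulk samples.

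Cdkn1a and Cdkn2b were the inhibitors called higher at all 4 culture times. Their promoters are shown because these genes changed more than the other members. Cdkn1a lies on the plus strand at chr17:29090979-29099701 (GRCm38, the listed transcript with 3 exons and 922 nt), and Cdkn2b on the minus strand at chr4:89306299-89311039 (2 exons, 1390 nt), 11.6 kb from Cdkn2a. The sequences are the 250 bases before the RefSeq start site (GRCm38.p6), chr17:29090729-29090978 on the plus strand for the upstream start of Cdkn1a, which is that of the listed transcript, and chr4:89311033-89311282 on the minus strand for Cdkn2b. Capitals mark a p53-type site in Cdkn1a and a cyclic AMP response element in Cdkn2b.
Cdkn1a: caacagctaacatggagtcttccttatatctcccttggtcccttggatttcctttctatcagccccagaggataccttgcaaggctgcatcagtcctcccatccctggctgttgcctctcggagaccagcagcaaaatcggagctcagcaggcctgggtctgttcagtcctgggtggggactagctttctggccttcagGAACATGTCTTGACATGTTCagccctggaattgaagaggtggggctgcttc
Cdkn2b: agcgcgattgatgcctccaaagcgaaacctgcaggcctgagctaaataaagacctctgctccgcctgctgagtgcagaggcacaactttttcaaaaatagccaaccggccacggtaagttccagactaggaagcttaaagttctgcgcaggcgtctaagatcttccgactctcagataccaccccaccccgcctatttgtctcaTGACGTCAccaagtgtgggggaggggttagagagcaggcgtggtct

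The p53-type site of Cdkn1a spanned positions -51 to -32 from the start site. It consisted of 2 adjoining half-sites with intact cores and 1 mismatch outside them, a search that was chosen after the sequence had been seen. A site of this quality was found in 18 of 32817 promoter windows (0.0548%), and one without any mismatch in 3 (0.00914%). The element TGACGTCA of Cdkn2b, at -46 to -39, was found in 1.79% of windows. The GC box GGGCGG, searched like TGACGTCA on both strands, was in 35.6% of windows. It was absent from the upstream window of Cdkn1a but occurred at 2 places in the window of its downstream start, 2790 bases further on, which held no p53-type site. A match of letters is a description and shows no binding.

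Cdkn1a was near the bottom of the table in freshly isolated cells and was called higher at every culture time. Its score was 16, 17 and 39 in the 3 libraries of 0 h and 484 and 289 in those of 12 h. The 24 h libraries gave 1231, 1284 and 1158, the 36 h libraries 2671, 2509 and 1988 and the 48 h libraries 2351, 2460 and 2369. All 11 cultured libraries were above all 3 of 0 h, and the libraries of 12 h, 24 h and 36 h did not overlap each other. Within its library the transcript moved from percentile 2.1 to 4.5 at 0 h to percentile 83.4 to 84.2 at 48 h. The log2 change from 0 h was 4.02 ± 0.31 (SE) at 12 h (adjusted p = 3.09e-07), 5.73 ± 0.27 at 24 h, 6.69 ± 0.27 at 36 h and 6.70 ± 0.27 at 48 h (adjusted p = 5.16e-10, 104-fold). The fold depends on the pseudocount, and with a pseudocount of 16 the log2 changes were 3.33 at 12 h and 5.96 at 48 h.

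The rise of Cdkn1a was spread over the culture and then levelled. Between 12 h and 24 h it gained a further 1.71 on the log2 scale (SE 0.31, adjusted p = 0.00616). The gain from 24 h to 36 h was 0.95 (SE 0.27, adjusted p = 0.0293), a call that was lost when any of 5 libraries, the 3 of 24 h and replicates 1 and 2 of 36 h, was left out (adjusted p = 0.0533 to 0.103). From 36 h to 48 h the difference was 0.01 with a 95% confidence interval of -0.58 to 0.61 (adjusted p = 0.992).

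Cdkn2b, which encodes p15, rose alongside from an even lower level. Its score was 8, 4 and 1 at 0 h and 66 in both libraries of 12 h. The 24 h libraries followed with 135, 71 and 141, the 36 h libraries with 202, 232 and 217 and the 48 h libraries with 218, 201 and 295. Again all 11 cultured libraries were above all 3 of 0 h, and every library of 36 h and 48 h was above every library of 12 h and 24 h. The transcript stayed in the lower part of the table, at percentile 0.3 to 1.2 at 0 h and 21 to 28.2 at 48 h. The log2 change was 3.90 ± 0.48 (SE) at 12 h (adjusted p = 2.04e-05) and 5.72 ± 0.43 at 48 h (adjusted p = 1.2e-07). Because the scores of 0 h were so low, the size of this change depended on the pseudocount, and the 48 h value was 3.64 with a pseudocount of 16 and 6.14 with one of 0.1. Within culture, the change from 12 h to 48 h was 1.81 ± 0.48 (adjusted p = 0.00975), which became 0.0554 without replicate 1 of 12 h, and none of the 3 steps between neighbouring times was called.

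**Figure D1:**
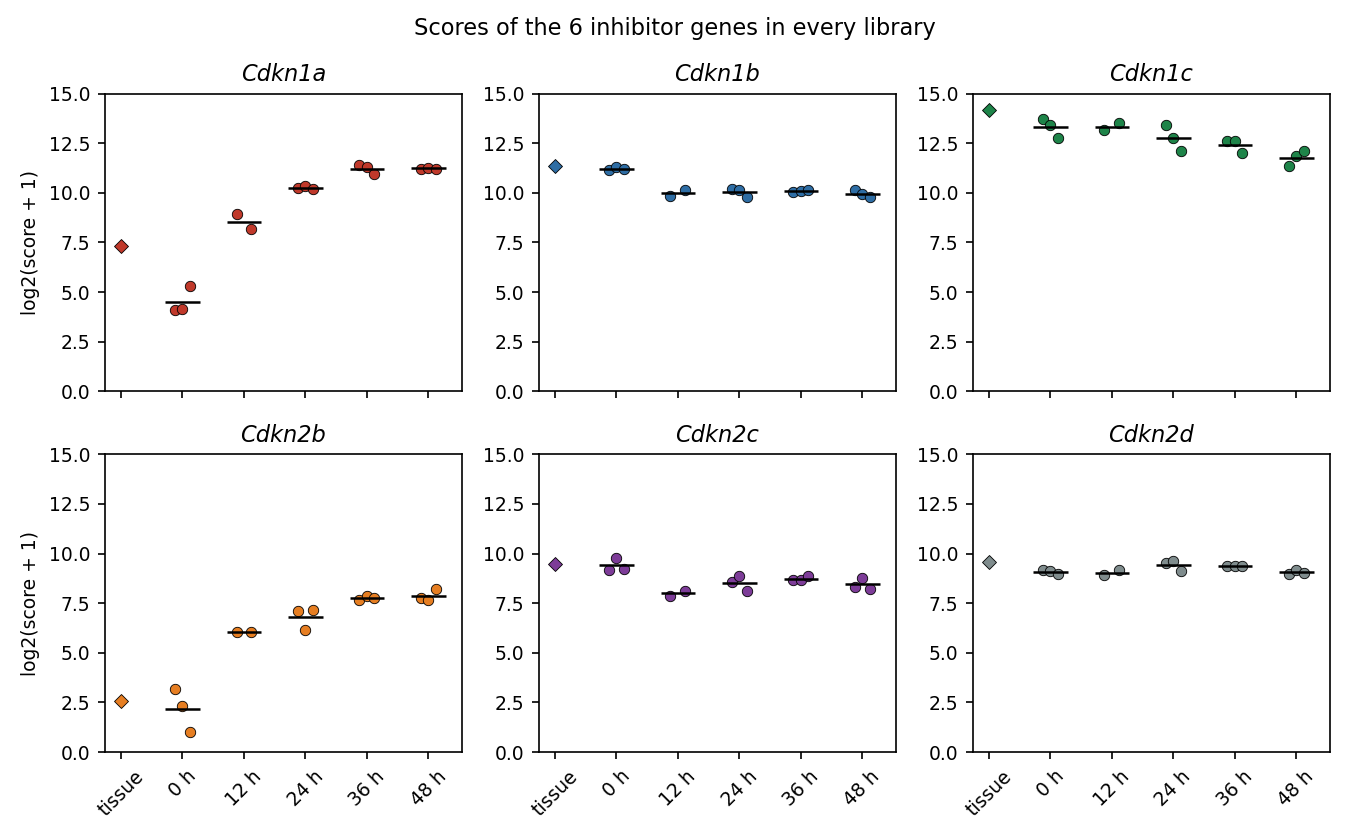
Score of each inhibitor gene in every library, as log2(score + 1) on the y axis, by group on the x axis. Circles are mDMC libraries, the diamond is the single tissue library and bars are means over 2 (12 h) or 3 libraries. All 11 cultured libraries lie above 0 h for Cdkn1a and Cdkn2b, and all 11 lie below for Cdkn1b and Cdkn2c.

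The other Cip/Kip genes fell, each on its own course. Cdkn1b (chr6:134920401-134925513, plus strand, 2 exons, 4552 nt), the gene for p27, scored 2280, 2535 and 2321 at 0 h and 928 and 1121 at 12 h. Later scores were 1182, 1126 and 895 (24 h), 1063, 1096 and 1145 (36 h), then 1112, 996 and 885 (48 h). The whole drop was in place at 12 h, all 11 cultured libraries were below all 3 of 0 h, and the cultured groups overlapped each other. The log2 change was -1.22 ± 0.13 (SE) at 12 h (adjusted p = 6.01e-06) and -1.26 ± 0.12 at 48 h (adjusted p = 7.76e-07, 2.39-fold lower). From 12 h to 48 h the difference was -0.04, with a 95% confidence interval of -0.32 to 0.25 (adjusted p = 0.832).

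Cdkn1c (chr7:143458339-143460996, minus strand, 4 exons, 1888 nt), the gene for p57, was the inhibitor with the highest scores in the tissue and at 0 h. It was called lower than 0 h at 36 h and 48 h. Fresh cells scored 13280, 11057 and 6924, and the cells of 12 h 9183 and 11599. The score was 11057, 6924 and 4373 after 24 h of culture, 6307, 6307 and 4038 after 36 h, and 2595, 3729 and 4459 after 48 h. The libraries of 12 h lay within the range of 0 h and those of 24 h overlapped it, whereas all of 36 h and 48 h were below it. Scores that recur exactly in different libraries come from the common distribution, since transcripts of equal rank receive equal values.

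The change of Cdkn1c was 0.04 ± 0.37 (SE) at 12 h, with a 95% confidence interval of -0.76 to 0.84 (adjusted p = 0.94), and -0.53 ± 0.33 at 24 h (adjusted p = 0.17). It was called at 36 h, at -0.89 ± 0.33 (adjusted p = 0.0293), and at 48 h, at -1.52 ± 0.33 (adjusted p = 0.00115, 2.87-fold lower). The 36 h call was lost without replicate 1 of 0 h (adjusted p = 0.112), replicate 2 of 0 h (0.0797) or replicate 3 of 36 h (0.12), and without replicate 1 of 24 h the 24 h difference was called (-0.87, adjusted p = 0.0305). The 48 h call held in all 14 fits with a library left out. Between 12 h and 48 h Cdkn1c differed by -1.56 ± 0.37 (adjusted p = 0.00517). The steps from 12 h to 24 h, 24 h to 36 h and 36 h to 48 h were -0.57, -0.35 and -0.63, and none was called.

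Of the remaining Ink4 genes, Cdkn2c was called lower at every culture time and Cdkn2d was called at 24 h alone. Cdkn2c (chr4:109660876-109667189, minus strand, 3 exons, 2471 nt), the gene for p18, scored 582, 877 and 602 in fresh cells and 235 and 276 in those of 12 h. It scored 374, 473 and 279 after 24 h, 406, 400 and 463 after 36 h, and 322, 432 and 300 after 48 h. All 11 cultured libraries were below 0 h, and 12 h was the lowest group. The log2 change was -1.40 ± 0.23 (SE) at 12 h (adjusted p = 0.000215), -0.68 ± 0.21 at 36 h (adjusted p = 0.0108, or 0.0581 without replicate 2 of 0 h) and -0.96 ± 0.21 at 48 h (adjusted p = 0.0011). The 24 h and 48 h groups were not called different from 12 h, 36 h was not compared with it, and the 48 h difference from 12 h was 0.44 (95% confidence interval -0.06 to 0.95, adjusted p = 0.141, or 0.04 with a replicate block).

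Cdkn2d (chr9:21288466-21291153, minus strand, 3 exons, 1264 nt), the gene for p19 of the Ink4 group, scored 565, 549 and 498 in fresh cells and 478 and 570 in those of 12 h. The 24 h libraries gave 730, 796 and 550, the 36 h libraries 651, 653 and 656, and the 48 h libraries 493, 583 and 524. Of the 11 cultured libraries 7 lay above all 3 of 0 h, among them all of 36 h, and 2 lay below. The 24 h group was 0.35 ± 0.13 (SE) higher on the log2 scale (adjusted p = 0.0298), although its replicate 3 lay within the range of 0 h, and leaving out any of 4 libraries (replicates 2 and 3 of 0 h, 1 and 2 of 24 h) raised the adjusted p to between 0.0525 and 0.142. The 36 h group was 0.28 ± 0.13 higher, which was not called (adjusted p = 0.0665) but was with a replicate block (0.0445), without replicate 3 of 24 h (0.0222) and with only the compared time points fitted (0.0205). That last fit did not call 24 h (0.0818). At 48 h the difference was -0.01, with a 95% confidence interval of -0.29 to 0.27 (adjusted p = 0.938). The listed transcript has a coding part of only 50 residues, and whether a row holds a single isoform or the sum of a gene is not given in the sources used here.

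**Figure D2:**
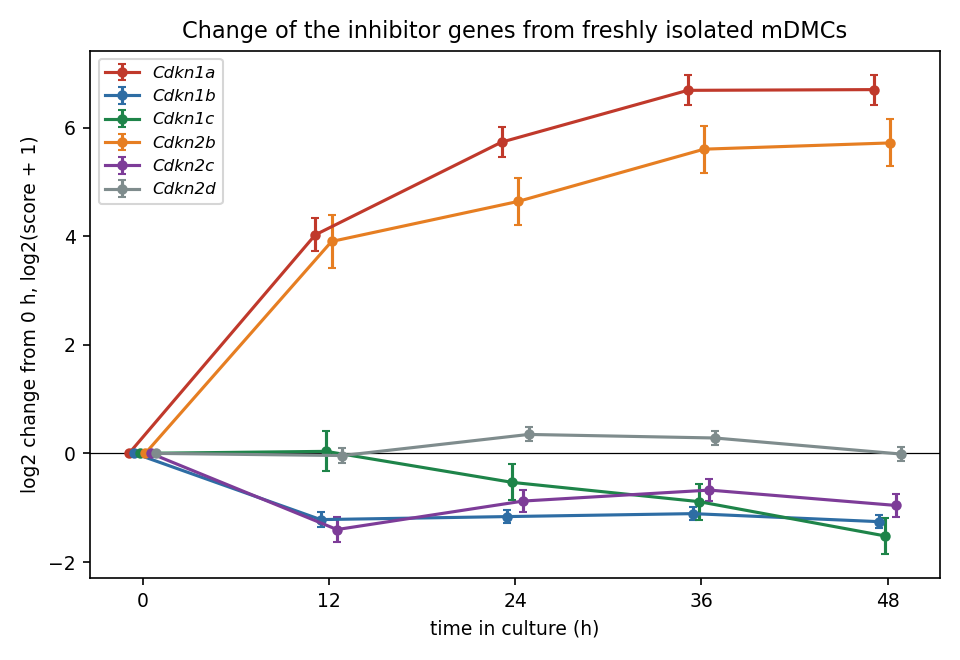
Change of each inhibitor gene from 0 h, in log2(score + 1) on the y axis, against hours in culture on the x axis. Points are limma estimates from 14 libraries and bars are standard errors, with points shifted slightly sideways. Cdkn1a and Cdkn2b end at 6.70 and 5.72, Cdkn1b and Cdkn2c reach their lowest or near-lowest value at 12 h, and Cdkn1c ends at -1.52.

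Counted together, 2 of 6 inhibitors were called higher and 2 lower at 12 h, beside 29.9% and 28.3% of all transcripts tested. At 24 h the counts were 3 and 2 (35% and 31.8% of all transcripts), at 36 h they were 2 and 3 (36% and 34%), and those of 48 h were again 2 and 3 (37.1% and 34%). With so large a part of the table called, the number of inhibitors called does not set the family apart. All 4 comparisons share the 3 libraries of 0 h. Without replicate 1 of 0 h, the library with the high epithelial sum, the 48 h changes were 6.48 for Cdkn1a, 6.22 for Cdkn2b, -1.29 for Cdkn1b, -1.32 for Cdkn1c and -1.06 for Cdkn2c, all called, and 0.025 for Cdkn2d. Between culture times, 1 inhibitor (Cdkn1a) was called higher from 12 h to 24 h (4.59% of transcripts) and from 24 h to 36 h (10%), and none was called lower (3.67% and 9.64%). From 36 h to 48 h no inhibitor was called by limma in either direction (0% of transcripts higher and 0.0248% lower). An unadjusted p below 0.05 was reached by 13.4% of transcripts and, among the 6 inhibitors, by 1, Cdkn2d (limma, unadjusted p = 0.0403). From 12 h to 48 h 2 were called higher (21.2%) and Cdkn1c lower (21%). With the rule of an unadjusted p below 0.05 and a fold above 2, 2 inhibitors were higher (13.8% of transcripts) and 1 lower (14.2%) at 24 h, 1 was lower at 36 h (15.6%), and none was higher from 24 h to 36 h (2.41%). At 48 h that rule called 2 lower (15.9%), since Cdkn2c was 1.94-fold lower.

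Levels of different genes can be set side by side only per length, so the score per kilobase of the listed transcript was used. Whether the deposited score was already corrected for length is not given in the sources used here, and the order and shares that follow take it as uncorrected. On the scores as deposited Cdkn1c came first at 48 h as at 0 h, at 3594 ± 939 (SD, n = 3) against 2393 ± 58.4 for Cdkn1a. At 0 h the order was Cdkn1c at 5519 ± 1710 (SD, n = 3) per kb, Cdkn1b at 522.6 ± 30.1, Cdkn2d at 425.1 ± 27.7, Cdkn2c at 278 ± 66.7, Cdkn1a at 26 ± 14.1 and Cdkn2b at 3.12 ± 2.53. At 48 h Cdkn1a came first at 2596 ± 63.4, followed by Cdkn1c at 1904 ± 497, Cdkn2d at 421.9 ± 36.2, Cdkn1b at 219.2 ± 24.9, Cdkn2b at 171.2 ± 36 and Cdkn2c at 142.2 ± 28.6. Cdkn2b and Cdkn2c differed by no more than the sum of their SDs at 48 h.

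Cdkn1c thus made up 80.6% of the summed inhibitor score per kb at 0 h (range 75.5% to 85.4%). After 12 h its share was 81.8%, after 24 h 60.8%, after 36 h 44.0% and after 48 h 34.5% (28.4% to 40.2%). Cdkn1a made up 0.446%, 6.44%, 22.4%, 39.2% and 47.9% (43.7% to 52.6%) at the same times. Whether Cdkn1a passed Cdkn1c depended on the length used and on dividing by length at all. The listed Cdkn1a transcript is short, and with the longest coding transcript of each gene (2080 nt for Cdkn1a) the 48 h shares were 47.3% for Cdkn1c and 29.5% for Cdkn1a. Under both lengths Cdkn1a held under 1% at 0 h and was in the leading pair at 48 h. The sum itself was 6774 per kb at 0 h and 5454 at 48 h with the listed lengths, and 6674 and 3949 with the longest.

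**Figure D3:**
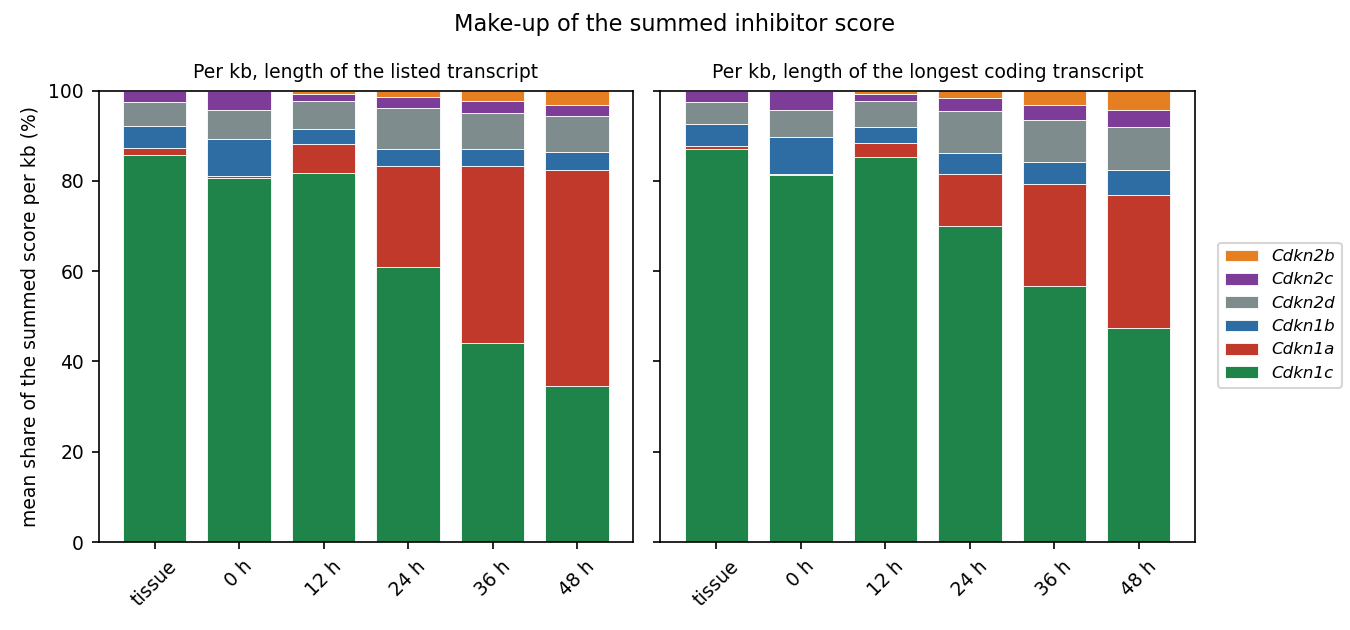
Mean share of each gene in the summed inhibitor score per kb (y axis, percent) by group (x axis), with the length of the listed transcript on the left and of the longest coding transcript on the right. Bars are means over 2 (12 h), 3 or, for the tissue, 1 library. The share of Cdkn1c goes from 80.6% to 34.5% on the left and from 81.3% to 47.3% on the right, while that of Cdkn1a grows.

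The single tissue library was above all 3 libraries of 0 h for 4 of the 6 members, beside 29.7% of all transcripts in the table. Cdkn2b, at 5, and Cdkn2c, at 699, lay within the range of 0 h. Cdkn1b at 2566, Cdkn1c at 18505 and Cdkn2d at 757 lay above it, at 1.08, 1.78 and 1.41 times the mean of 0 h. Cdkn1a scored 158 in the tissue, 6.58 times its mean at 0 h and below every cultured library. With 1 library there is no test. A log2 difference as large as that of Cdkn1a (2.79) was found for 26 transcripts (0.215%). The tissue also lay above 0 h for 7 of 8 endothelial and 4 of 4 macrophage markers and below it for 8 of 11 dental mesenchyme markers (sum 69705), and the part of other cell types in these differences was not tested.

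The transcripts nearest to each member were sought by the root mean square (rms) difference of the 4 log2 changes from 0 h, which come from time-point means over the same 14 libraries. Cdkn1a had no transcript within 0.2. Its nearest were Tm4sf1 (a small membrane protein of the tetraspanin-like kind, rms 0.36), Cryab (a small heat shock protein, 0.39) and Inka2 (an inhibitor of the kinase Pak4, 0.46). Cdkn2b had 1 within 0.2, Sco2 (a copper chaperone of cytochrome oxidase, 0.16), followed by Map6 (a microtubule protein, 0.24).

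The other members changed less and had more transcripts near them. A fixed cutoff of 0.2 finds more transcripts where changes are small, so these counts do not set a member apart. For Cdkn1b, 136 transcripts lay within 0.2, led by Tle4 (a Groucho co-repressor, 0.05), Foxf1 (a forkhead factor, 0.06) and Npl (a sialic acid lyase, 0.07). Cdkn1c had 13, led by Dna2 (a nuclease and helicase of replication, 0.12), Shf (an adaptor protein, 0.12) and Trib2 (a pseudokinase, 0.12). Cdkn2c had 23, led by a transcript with no gene name, Kyat3 (an aminotransferase, 0.12) and Ets2 (a transcription factor, 0.15), and Cdkn2d had 480, led by Top3a (a topoisomerase, 0.06), Rad1 (a checkpoint clamp subunit, 0.07) and Sgo1 (a protector of centromeric cohesion, 0.07). Between members, the rms was 0.92 for Cdkn1a with Cdkn2b and 0.31 for Cdkn1b with Cdkn2c.

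The kinases and cyclins that the inhibitors block were mostly lower at 48 h. Of 11 genes, 1 was called higher and 8 lower, beside 37.1% and 34% of all transcripts, with a median log2 change of -0.47 beside 0.03 over all transcripts. Ccnd1 (cyclin D1) rose by 1.28, whereas the other D-type cyclins fell, Ccnd2 by 1.34 and Ccnd3 by 1.04. Ccne1 fell by 0.88, its partner Cdk2 by 0.67 and Ccna2 by 0.65. Cdk4 and Cdk6, the kinases that Ink4 proteins bind and named here for that role after their values were seen, were not called (-0.04 each, adjusted p = 0.671 and 0.888). The list was less uniform at 12 h, with 2 called higher and 3 lower (29.9% and 28.3% of all transcripts).

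In the Rb and E2f family, through which the brake reaches transcription, 3 of 13 genes were called higher and 5 lower at 48 h (median -0.16), counts near the 37.1% and 34% of the whole table. Rb1, the retinoblastoma gene, rose by 1.56 and its relative Rbl1 fell by 0.90. E2f2, an activating E2f, fell by 4.97 and E2f1 by 0.71, whereas E2f7, a repressing E2f, rose by 1.03. Tfdp2, a partner of E2f proteins, fell by 1.24. Of 23 proliferation genes 1 was called higher and 16 lower (median -0.62), beside the same 37.1% and 34%. Mki67 fell by 2.05, Ccnb2 by 1.70, Top2a by 1.59, Mcm6 by 1.41, Mcm4 by 1.36 and Bub1b by 1.29. Of the same 23 genes, 2 were called higher and 13 lower at 12 h (29.9% and 28.3% of all transcripts). The study reports that mDMCs kept proliferating in serum-supplemented culture. A score ranks a transcript within its library, so these changes do not measure how fast the cells divided. Whether division slowed was not tested.

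The genes of p53 and its targets were mostly higher, as Cdkn1a was. Of 21 genes, 16 were called higher and 3 lower at 48 h (37.1% and 34% of all transcripts), with a median of 2.77. At 12 h the counts were 12 and 3 (29.9% and 28.3% of all transcripts), with a median of 0.77. Pmaip1 (the death factor Noxa) rose by 5.89, Ccng1 (cyclin G1) by 5.50, Eda2r (a death receptor of the TNF receptor family) by 4.98, Bbc3 (Puma) by 4.0, Fas by 3.96 and Perp by 3.70. Trp53 itself rose by 0.43 (adjusted p = 0.0353). Mdm2, the ligase that degrades p53, was at 0.12 at 12 h (adjusted p = 0.554) and reached 3.41 at 48 h. The part of p53 in the rise of Cdkn1a was not tested. Trp53 and Mdm2 were named for their roles after their values were seen. The 3 genes that fell, named after their values were seen, were Sesn1 (a stress-induced sestrin) by 1.68, Mdm4 (a p53 inhibitor) by 1.37 and Btg2 by 1.27, an antiproliferative gene also on the list of other brakes.

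The machinery around Cip/Kip protein turnover, which mRNA scores of the inhibitors cannot show, was mixed. Of 11 genes of the ubiquitin ligases 3 were called higher and 5 lower at 48 h (median -0.09), beside 37.1% and 34% of all transcripts. Skp2, the F-box protein that targets p27, fell by 1.18, Dtl by 1.04, Skp1a by 0.92, Rnf123 by 0.47 and Cul1 by 0.35, while Ddb1 rose by 0.66. Cdkn1b and Skp2 were thus both lower at 48 h.

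Polycomb genes and other repressors of the Ink4 genes were lower as a rule, with 1 of 15 called higher and 11 lower at 48 h (median -0.61, beside 37.1% and 34% of all transcripts). At 12 h 1 was called higher and 7 lower (median -0.35, beside 29.9% and 28.3%). Cbx2 fell by 1.82 and Phc1 by 1.30, both subunits of the Polycomb repressive complex that compacts chromatin. Ezh2, the methyltransferase of the other complex, fell by 0.84 and Twist1 by 0.81, and Eed, a subunit beside Ezh2, rose by 1.18. Of 16 genes for TGF-beta, FoxO, Klf and Myc regulators, 1 was called higher and 5 lower at 48 h (median -0.16), beside 37.1% and 34% of the table. Tgfb3 rose by 1.72, and Sp1 fell by 1.02, the receptors Tgfbr1 and Tgfbr2 by 0.99 and 0.54, Smad3 by 0.89 and Smad4 by 0.30. At 12 h 3 genes of this list were called higher and 7 lower (median -0.04, beside 29.9% and 28.3%). Those higher were Tgfb1 (2.04), Myc (1.77) and Tgfb3 (1.27), named after their values were seen.

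Cdkn1c lies in the Kcnq1 imprinted domain, whose non-coding RNA Kcnq1ot1 is transcribed from the paternal allele and silences neighbours there. Of the 6 listed neighbours with a row, 2 were called higher and 3 lower at 48 h (median -0.27), beside 37.1% and 34% of all transcripts. Kcnq1ot1 fell by 1.26 at 48 h, and its log2 change was -0.10 at 12 h, -0.74 at 24 h and -1.10 at 36 h. Trpm5 fell by 3.66 and Nap1l4 by 0.59, while Osbpl5 rose by 0.97 and Cd81 by 0.74. Allele-specific reads were not analysed here.

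**Figure D4:**
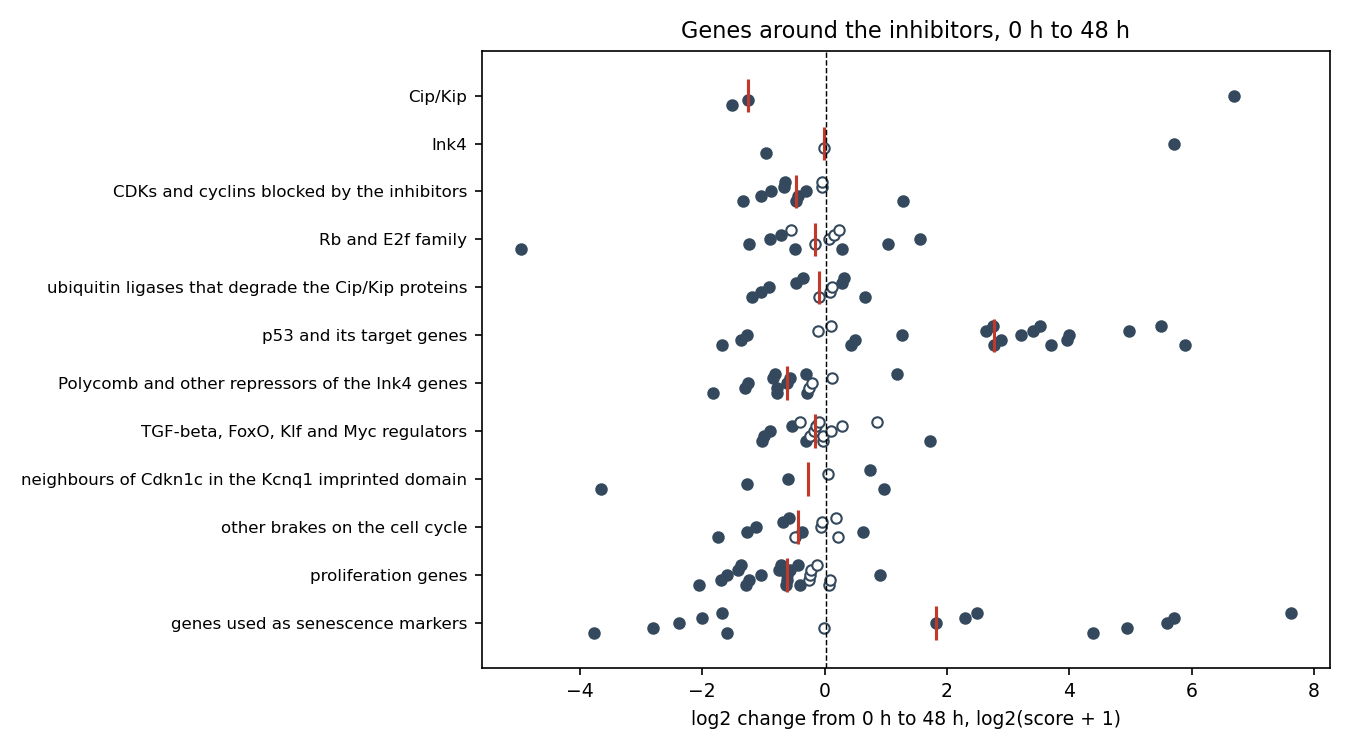
Log2 change from 0 h to 48 h (x axis) of the genes in each list (y axis). Each point is 1 gene, filled where called by limma, red bars are list medians and the dashed line is the median of all transcripts tested (0.03). The p53 list has its median at 2.77, whereas the medians of the cyclin and CDK, Polycomb and proliferation lists lie at -0.47, -0.61 and -0.62.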

How the data were processed

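TruSeq libraries of total RNA from 14 mDMC samples and 1 tissue sample were sequenced. Per the study's methods, the authors trimmed reads, mapped them to the mm10 Ensembl transcriptome with bowtie and quantified them with RSEM. The submitters' processing notes give RSEM version 1.1.21, and the study's methods name a different version. The deposited table holds a whole-number score for 12089 transcripts. It is named as cpm, but every library total lies between 21357605 and 21365980 and the values share a common distribution, so the score was treated as a normalized value and no count model was used. This replaces any test of read counts, and depth and its precision are unknown.

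Transcripts were matched to genes by Ensembl identifier in GENCODE M21 (GRCm38, the same build as mm10), with 11973 of 12089 matched. The groups came from the sample labels. The scores were analysed with limma 3.58.1 in R 4.3.3 on log2(score + 1), with 1 mean per time point, an intensity trend and two-sided tests. The fit used the 14 mDMC libraries and the 12079 transcripts that reached 1 ppm in 2 or more libraries, and p-values were adjusted by Benjamini-Hochberg over all of them. Fold changes are on the log2(score + 1) scale, which understates changes of low scores. The tissue library has no replicate and was left out of the fit. In data simulated for the 48 h comparison, 89 of 100 transcripts changed 2-fold and 90 of 100 changed 4-fold were recovered, and 14 of 11879 unchanged ones were called. Far fewer transcripts were changed there than the 8599 called at 48 h in the data. These rates check that the fit runs and do not give the error rates of the real comparison.

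The members and gene lists were chosen with earlier results of these data known. Genes named were the members, up to 6 called genes per list with the largest 48 h change, and the 3 transcripts nearest each member, of which a few are not reported here. Alternatives covered the pseudocount, the filter, scaling by trimmed means of M values (TMM), the samples fitted, a replicate block, each library left out, and the rule of an unadjusted p below 0.05 with a fold above 2. Promoters came from RefSeq (GRCm38.p6) and matched 5 of the 6 members.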

Additional observations from a re-analysis of the deposited data

How the results depend on the processing

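The 48 h changes of Cdkn1a, Cdkn1b, Cdkn1c, Cdkn2b and Cdkn2c kept their direction in every alternative in which they could be fitted, and their call in all but the fold rule, which lost Cdkn2c, over ranges of 5.96 to 7.10, -1.34 to -1.17, -1.79 to -1.30, 3.64 to 6.22 and -1.12 to -0.77. With a filter of 1 ppm in all 14 libraries, Cdkn1a and Cdkn2b were removed and the number of inhibitors called higher against 0 h became 1 at 24 h and 0 at each other time, and 0 in the 3 comparisons between culture times that had called any. The number called higher from 24 h to 36 h was 2 with a pseudocount of 16 and 2 when only the compared time points were fitted (Cdkn2b joined, adjusted p = 0.0177 and 0.0406), and 0 with the fold rule. Under the fold rule 2 inhibitors were called lower after 48 h of culture, 1 was lower after 24 h and 1 after 36 h, while 2 were called higher after 24 h, without Cdkn2d.

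With each library left out in turn, the number called higher was 2 to 3 at 24 h, 2 to 3 at 36 h and, between culture times, 1 to 2 from 12 h to 24 h, 0 to 2 from 24 h to 36 h and 1 to 2 from 12 h to 48 h. The number called lower was 2 to 3 at 24 h and 1 to 3 at 36 h, where it was 1 without replicate 2 of 0 h. Without replicate 3 of 24 h, Cdkn2d became called at 36 h (adjusted p = 0.0222) and for 24 h against 12 h (0.55, adjusted p = 0.0207), and without replicate 3 of 0 h Cdkn2b became called for 36 h against 24 h (adjusted p = 0.0329). Differences close to 0 changed sign. Cdkn2d ranged from -0.078 to 0.043 at 48 h and from -0.17 to 0.087 at 12 h against 0 h, from -0.099 to 0.15 for 48 h against 12 h and from -0.22 to 0.044 for 36 h against 24 h. Cdkn1b ranged from -0.081 to 0.19 for 24 h against 12 h, from -0.068 to 0.13 for 36 h against 24 h and from -0.17 to 0.098 for 48 h against 12 h. Cdkn1c ranged from -0.23 to 0.24 at 12 h against 0 h. For 48 h against 36 h the range was -0.11 to 0.099 for Cdkn1a and -0.049 to 0.23 for Cdkn2b. Where 12 h was left with 1 library, it was assumed to vary like the other groups.

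Over all groups, 11 of 26 same-numbered pairs of libraries correlated above 0.1 (mean 0.08), and 6 of 52 other pairs did (mean -0.04). The 2 libraries of 12 h gave values of equal size and opposite sign, so pairs with 12 h cannot show whether the numbers match. Whether the replicate numbers pair the libraries is not settled by these values. The main fit used no pairing, and a replicate block was fitted as an alternative. Every same-numbered pair was above 0.1 for 24 h with 36 h (0.127 to 0.165) and for 24 h with 48 h (0.201 to 0.318), and for 36 h against 24 h the block changed no call of an inhibitor (Cdkn1a 0.95, adjusted p = 0.0374). With the replicate block, 8658 transcripts were called at 48 h in place of 8599, Cdkn2d at 36 h (adjusted p = 0.0445) and Cdkn2c from 12 h to 48 h (0.52, adjusted p = 0.04) became called, and the block turned Cdkn1c at 12 h to -0.12 and Cdkn1b from 12 h to 48 h to 0.010. TMM scaling moved the median of all transcripts from 0.03 to 0.02 and changed no call of an inhibitor. The cause of these shifts was not tested beyond the construction of each alternative.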

Other observations

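Genes used as markers of senescence, a state of which Cdkn1a and the Ink4 genes are also markers, went in both directions. Of 15 genes, 8 were called higher and 6 lower at 48 h (37.1% and 34% of all transcripts), with a median log2 change of 1.82. The list mixes markers that rise with markers that fall in senescence and was not split by direction. Whether the genes followed that state was not tested. The secreted factors Mmp10, Timp1, Ccl2 and Mmp3 rose by 7.63, 5.71, 4.94 and 4.39, and the chromatin genes Hmga1 and Hmga2 rose by 2.30 and 2.49. Mmp10 scored 0 in all 3 libraries of 0 h, so its fitted change depends on the pseudocount. Igfbp5 fell by 3.77, Igfbp3 by 2.80, Cxcl1 by 1.67, the nuclear lamina gene Lmnb1 by 2.38 and the chromatin genes Hmgb1 and Hmgb2 by 1.60 and 2.01. Glb1, which encodes the lysosomal beta-galactosidase, was not called (-0.0043, adjusted p = 0.974). Several genes of this paragraph were named after their values were seen.

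Of the 12 other brakes on the cell cycle, 1 was called higher and 6 lower at 48 h (median -0.43), beside 37.1% and 34% of all transcripts. Btg1 fell by 1.74 and Btg2 by 1.27, both antiproliferative genes, Gas1, a growth arrest gene, fell by 1.12, Pkmyt1, a kinase that inhibits Cdk1, fell by 0.67 and Cdkn2aipnl fell by 0.59, while Cdk2ap2 rose by 0.64. Btg2 was at -2.78 at 12 h and rose by 1.52 from 12 h to 48 h (adjusted p = 0.011 from limma), a time in which Cdkn1a also rose.

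The tissue library was above all 3 libraries of 0 h for Cdkn1a and for 9 of the 21 genes of the p53 list, and below them for 3, beside 29.7% and 32.0% of all transcripts. Bbc3 scored 209 in the tissue and 13 to 76 at 0 h, Fas 140 and 24 to 40, Pmaip1 68 and 21 to 35, and Ccng1 1409 and 902 to 1135, while Mdm2 lay within the range of 0 h. Of 23 proliferation genes, none was above 0 h in the tissue and 18 were below. The tissue was also above 0 h for 7 of 8 endothelial and 4 of 4 macrophage markers, and their part was not tested. The tissue has 1 library, so none of these differences was tested. These genes were chosen after their values were seen.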
